A study of Homo sapiens with 12 samples.

Results

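Gene expression of PC9 cells after 28 days in erlotinib was compared with that of the same line after 7 days in the drug, across all genes. PC9 is a human lung adenocarcinoma line whose growth depends on a mutant EGFR, and erlotinib blocks the kinase of that receptor. Both groups were TDP1 WT and received erlotinib at 1 µM. The 7-day group is called drug-tolerant cells (DTC) by the study and the 28-day group drug-tolerant expanded cells (DTEC). Untreated (NT) TDP1 WT cells give the reference level below, and untreated cells of a TDP1 knockout line (KO2) entered the fit only for its estimate of the spread. Each of the 4 groups held 3 replicate cultures. Per the series' design text, the cultures were split from 1 flask of a subclonal PC9 line and then kept apart, so the p-values measure the spread between such cultures of 1 line. All 12 libraries carry the same batch label, and the labels give no time in culture for the untreated cells, so time in the drug and time in culture cannot be told apart. The 6 libraries compared held 25572691 to 36054069 estimated read counts, and 17115 of 62754 gene identifiers passed the filter on low counts and were tested.

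EGFR signals through the RAS, RAF, MEK and ERK kinases to drive growth and division. When the receptor is blocked most dependent tumour cells die, and a minority survive in a slow or arrested state from which some later return to division while the drug is still present. Transcripts of ERK feedback genes such as DUSP6 and SPRY4 report how active the pathway is, and tolerant lung cancer cells are known for inflammatory, mesenchymal and lysosomal gene expression.

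The labelled cell type was checked against its markers. Of 12 epithelial markers, the keratin genes KRT8 and KRT18 were abundant, at 1869 and 1184 CPM (counts scaled to a library total of 1000000) in DTC and 3571 and 2609 CPM in DTEC. The lung lineage markers NKX2-1 (0.366 and 0.0458 CPM) and NAPSA (1.62 and 0.541 CPM) were low in DTC and DTEC. Among markers of other cells, PTPRC lay at 0.0896 and 0.0366 CPM, and CD3D, MS4A1 and NKG7 had no count. The 9 immune markers summed to 38.9 to 55.3 CPM over the DTC libraries and 35.1 to 41.7 CPM over the DTEC libraries, most of it from CD68, a lysosomal gene (46.4 and 37.3 CPM). The 7 fibroblast markers summed to 55.0 to 57.8 CPM in DTC and 11.2 to 14.2 CPM in DTEC, nearly all from COL1A1. The 5 endothelial markers summed to 42.3 to 50.2 CPM in DTC and 122 to 142 CPM in DTEC, of which PECAM1 alone, an adhesion molecule, lay at 8.77 and 92.1 CPM. In bulk RNA a smaller number of cells of a type and less RNA per cell cannot be told apart.

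The 3 DTC libraries differed more among themselves than the 3 DTEC libraries. The biological coefficient of variation, the spread between cultures beyond counting error, was 21.7% in DTC, 14.3% in DTEC and 14.6% over all libraries. DTC replicate 1 stood apart from replicates 2 and 3, with median absolute log2 differences of 0.39 and 0.33 per gene against 0.16 between replicates 2 and 3. In DTEC the difference was 0.16 between replicates 1 and 2, 0.27 between 1 and 3, and 0.20 between 2 and 3. DTC replicates 2 and 3 were thus at least as close as any DTEC pair. Mitochondrially encoded genes took 5.02% ± 0.519 (SD, n = 3) of the counts in DTC and 2.04% ± 0.296 in DTEC. Genes with at least 1 count numbered 23922 ± 502 in DTC and 21776 ± 462 in DTEC. For both measures no library of one group fell within the range of the other, and the two-sided exact permutation p was 0.1, the smallest that 3 libraries against 3 allow. Counting error alone sets the smallest level that can be read: 3 counts correspond to 0.0926 CPM in DTC and 0.0961 CPM in DTEC on average, and a gene at or under 3 counts in every library of a group is given as at that floor.

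The step from 7 to 28 days was accompanied by many differences. Of 17115 genes, 9480 (55.4%) were called at an adjusted p under 0.05 by edgeR's quasi-likelihood test, 4923 (28.8%) higher in DTEC and 4557 (26.6%) lower. These shares higher and lower are the reference for the list counts below. With a fold change of at least 2 also required, 1386 (8.1%) were higher and 2447 (14.3%) lower. Over all genes tested, the larger the change, the more it lay on the lower side: 257 genes were at least 4-fold higher and 991 at least 4-fold lower, and 37 and 191 genes passed 16-fold. The balance was the reverse among 2-fold genes with a symbol, a mean of at least 10 CPM and no overlap of libraries, 880 higher and 629 lower. Of protein-coding genes 33.5% were called higher and 26.4% lower, and of long intergenic noncoding RNA genes 10.1% and 29.4%. The share called was 47.5% when the compared libraries were fitted alone and 47.5% to 60.3% when 1 library was left out, the highest without DTC replicate 1. The median log2 fold change of all genes was -0.01. The balance of higher and lower calls moved with the scaling. With libraries scaled to their total counts, 37.4% of the calls were higher, against 51.9% with the scaling used here, and the median gene shifted by -0.19. With upper quartile scaling 38.7% were higher and the shift was -0.17. The directions given below are relative to the scaling used here.

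**Figure D1:**
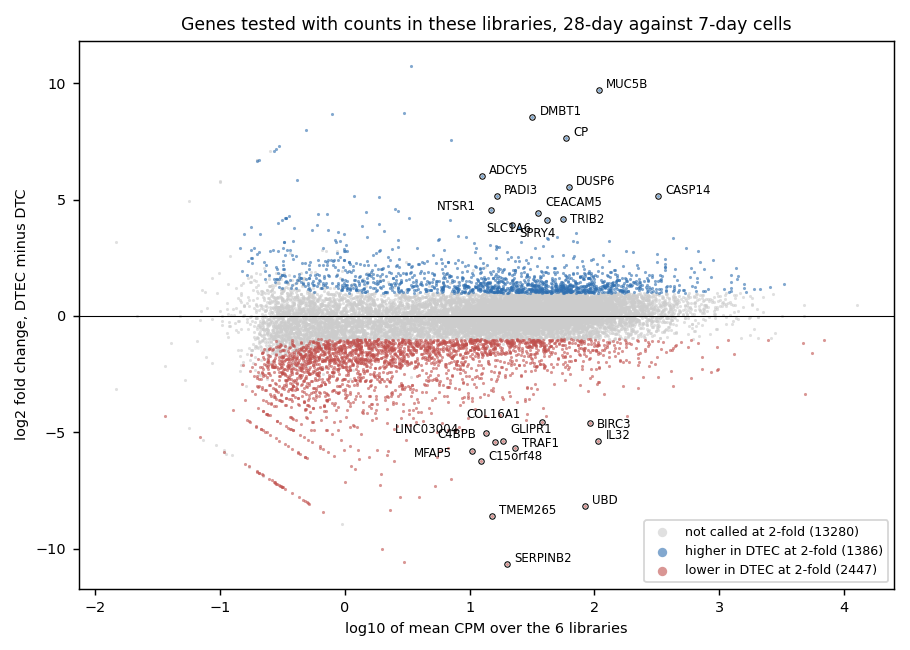
Log2 fold change of DTEC minus DTC (vertical axis) against log10 of the mean CPM over the 6 libraries (horizontal axis), 1 point per gene tested with counts in these libraries. Blue marks the 1386 genes higher in DTEC at 2-fold, red the 2447 lower, and the circled genes are the 12 with the largest change in each direction that passed the naming rule. Red points reach further down at low levels than blue points reach up.

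The genes that were highest in DTEC relative to DTC included genes of secreted, differentiation and ERK feedback proteins. MUC5B (ENSG00000117983, chromosome 11, 1223066 to 1262172, plus strand, GRCh38), a gel-forming airway mucin, was at 0.135, 0.235 and 0.381 CPM in DTC replicates 1 to 3 and at 148, 234 and 271 CPM in DTEC replicates 1 to 3. All 3 DTEC libraries lay above the untreated mean of 26.2 CPM. The 12 genes named as highest were chosen to have a mean of at least 10 CPM and no overlap of DTC and DTEC libraries. The log2 fold change was 9.71 (SE 0.383, edgeR adjusted p 6.89e-10). DMBT1, a secreted scavenger protein of mucosal surfaces, was at 0.135, 0.0883 and 0.264 CPM in DTC and 34.8, 69.8 and 85.4 CPM in DTEC (log2 fold change 8.56, SE 0.411, adjusted p 4.18e-09). CP, the plasma copper protein ceruloplasmin, was at 0.913, 0.412 and 0.469 CPM in DTC and 102, 113 and 142 CPM in DTEC (7.65, SE 0.236, adjusted p 3.60e-11). MUC5B and DMBT1 were detected in untreated cells above their DTC level, whereas CP was as low in untreated cells (0.505 ± 0.116 CPM) as in DTC.

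CASP14, a caspase of terminal epidermal differentiation, went from 21.3, 14.8 and 16.7 CPM in the DTC libraries to 646, 586 and 666 CPM in the DTEC libraries, against 99.6 ± 0.827 CPM in untreated cells. PADI3, which converts arginine in proteins to citrulline, went from 1.22, 0.648 and 0.821 to 25.1, 30.1 and 41.4 CPM. The log2 fold changes were 5.17 (SE 0.136) and 5.18 (SE 0.220), with adjusted p of 1.15e-11 and 4.40e-10. ADCY5, an adenylate cyclase, was at 0.377 CPM in DTC and 24.8 CPM in DTEC, and NTSR1, the neurotensin receptor, at 1.18 and 28.3 CPM. CEACAM5, the carcinoembryonic antigen, was at 3.17 and 67.7 CPM, the pseudokinase gene TRIB2 at 5.86 and 105 CPM, and the glutamate transporter gene SLC1A6 at 4.49 and 79.6 CPM. Their log2 fold changes were 6.02, 4.57, 4.43, 4.17 and 4.15, with adjusted p between 3.60e-11 and 1.63e-09. DUSP6 and SPRY4 complete the 12 and are described with ERK output.

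The genes that were lowest in DTEC relative to DTC included several of inflammatory signalling. UBD (ENSG00000213886, chromosome 6, 29555515 to 29559925, minus strand, GRCh38), a ubiquitin-like protein induced by interferon and TNF, was at 108, 217 and 173 CPM in DTC and 0.944, 0.306 and 0.440 CPM in DTEC, and had no count in untreated cells. BIRC3, an inhibitor of apoptosis and NF-kB feedback gene, was at 207, 164 and 161 CPM in DTC and 9.29, 7.68 and 5.17 CPM in DTEC. IL32, a secreted inflammatory mediator, was at 179, 237 and 214 CPM in DTC and 6.64, 4.58 and 3.82 CPM in DTEC. The 3 genes had log2 fold changes of -8.17 (SE 0.416), -4.59 (SE 0.210) and -5.39 (SE 0.225) and adjusted p of 1.01e-06, 1.21e-09 and 5.35e-10. The genes named as lowest were likewise chosen to have no overlap of libraries. The DTEC mean of BIRC3 was close to the untreated 6.80 CPM, and that of IL32 remained above the untreated 0.834 CPM.

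SERPINB2, an inhibitor of plasminogen activators, was at 33.5, 39.4 and 46.5 CPM in DTC and at the floor in DTEC, which makes it at least 414-fold lower. TRAF1, an adaptor of TNF receptors, was at 45.2 CPM in DTC and 0.894 CPM in DTEC, C4BPB, a complement regulator chain, at 31.5 and 0.722 CPM, and C15orf48 at 24.4 and 0.325 CPM. GLIPR1 was at 36.4 and 0.874 CPM, and the matrix genes MFAP5 and COL16A1 went from 20.5 to 0.369 and from 72.6 to 3.08 CPM. The long noncoding RNA LINC03004 was at 26.1 and 0.789 CPM. The log2 fold changes were -5.69 for TRAF1, -5.42 for C4BPB, -6.25 for C15orf48, -5.36 for GLIPR1, -5.82 for MFAP5, -4.55 for COL16A1 and -5.03 for LINC03004. TMEM265 completed the 12 at 30.2 and 0.0788 CPM, but 0 of its 5 values above 0 were whole numbers, so its reads were shared with another feature and its level is uncertain. MFAP5 was likewise whole in 2 of 12 libraries.

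**Figure D2:**
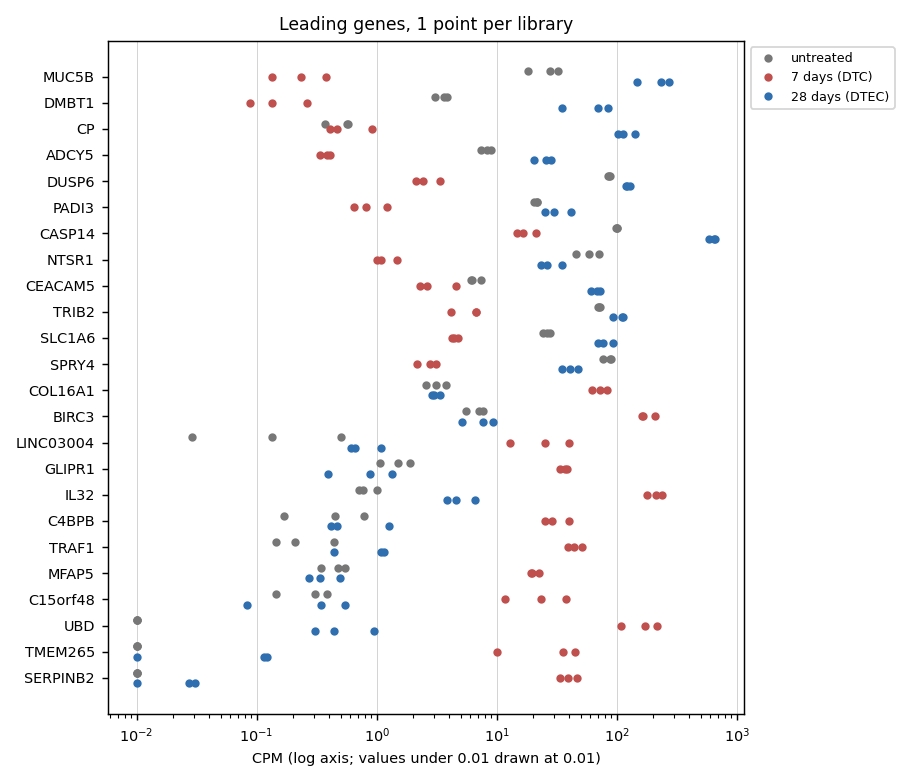
CPM on a log axis, 1 point per library, in untreated cells (grey), DTC (red) and DTEC (blue), with values under 0.01 drawn at 0.01. The 24 genes had the largest changes among those with a mean of at least 10 CPM that passed the naming rule. The 24 were chosen to have no overlap of DTC and DTEC points. In the 12 lower genes the red points lie to the right of all others.

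Transcripts of ERK output genes were mostly higher in DTEC than in DTC. The activity of ERK itself was not measured. Of 18 ERK output genes, 15 were higher in DTEC and 2 were lower, where 28.8% and 26.6% of all genes tested did so, and the median log2 fold change was 1.80. Set side by side against untreated cells, the list's median was -2.08 in DTC and 0.08 in DTEC. In DTEC it was 0.08 for the 9 phosphatases and inhibitors and -0.39 for the 9 ETS and related transcription factors. DUSP6 (ENSG00000139318, chromosome 12, 89347232 to 89353271, minus strand, GRCh38), the phosphatase that switches ERK off, was at 3.35, 2.41 and 2.11 CPM in DTC and 118, 121 and 128 CPM in DTEC, with 85.7 ± 1.78 CPM (SD, n = 3) in untreated cells. Every DTEC library was above every untreated library, and the DTC libraries were at about 3.06% of the untreated mean. The log2 fold change between DTEC and DTC was 5.55 (SE 0.145, adjusted p 1.15e-11).

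SPRY4 and SPRY1, inhibitors upstream of ERK, were at 2.70 ± 0.493 and 3.40 ± 0.0757 CPM in DTC and at 41.1 ± 6.48 and 46.5 ± 3.76 CPM in DTEC (SD, n = 3). SPRY1 thereby exceeded its untreated level of 37.1 ± 0.594 CPM, while SPRY4 stayed at 48.5% of its own. ETV1, an ETS transcription factor, was at 0.341 CPM in DTC and 6.20 CPM in DTEC (log2 fold change 4.21, adjusted p 6.26e-07). MYC was at 77.5 and 223 CPM (1.53, adjusted p 9.27e-08), and CCND1, the cyclin that opens G1, at 159 and 279 CPM (0.81, adjusted p 1.73e-05). Both remained under their untreated means of 305 and 454 CPM. IER3 and EPHA4 went the other way, with log2 fold changes of -0.96 and -0.87.

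The immediate-early factors did not move as 1 group. Of 16, 7 were higher and 4 lower, with a median of 0.10 that turned to -0.09 when libraries were scaled to total counts. FOS was at 5.11 ± 2.5 CPM in DTC and 34.9 ± 6.41 CPM in DTEC (2.76, adjusted p 1.20e-06), EGR1 at 3.04 and 12.9 CPM (2.08) and FOSL1 at 23.2 and 59.3 CPM (1.36). ATF3, a stress-induced factor, fell from 43.8 ± 4.57 to 7.59 ± 2.78 CPM (-2.53, adjusted p 4.38e-07), and KLF6 from 60.2 to 42.7 CPM (-0.49).

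All 3 receptors of the EGFR family that were tested were higher in DTEC, while ERBB4 was near 0 and untested. EGFR itself (ENSG00000146648, chromosome 7, 55019021 to 55211628, plus strand, GRCh38) was at 870.0, 457 and 510.1 CPM in DTC, 1112, 1079 and 865 CPM in DTEC and 1501 ± 73.6 CPM in untreated cells. The log2 fold change was 0.73 (SE 0.190, adjusted p 0.00482), although DTC replicate 1 lay just above DTEC replicate 3. ERBB3, the kinase-poor partner of the family, was at 131, 99.8 and 102 CPM in DTC and 279, 273 and 273 CPM in DTEC (1.31, SE 0.108, adjusted p 2.38e-07). No library overlapped, and DTEC reached 380.0% of the untreated level. ERBB2, named after its value was seen, was at 99.2 and 148 CPM (0.58, adjusted p 5.83e-04).

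Ligands of the family split, 4 higher and 4 lower of 9 tested. EREG was higher (2.30 to 8.10 CPM, 1.81), and TGFA, the most abundant of them in DTC, fell from 168 ± 27.3 to 55.6 ± 3.74 CPM (-1.59, adjusted p 6.07e-08). ERRFI1, an intracellular EGFR inhibitor, rose from 57.5 ± 5.58 to 197 ± 38.3 CPM (1.78, adjusted p 7.91e-08), and the ubiquitin ligase gene CBL from 38.8 to 79.7 CPM (1.04).

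Of 14 other receptor kinases tested, 7 were higher and 2 lower. IGF1R, the insulin-like growth factor receptor, rose from 67.9, 44.3 and 43.0 CPM in the DTC libraries to 139, 139.8 and 132 CPM in the DTEC libraries (1.405, SE 0.143, adjusted p 1.79e-06), and its groups did not overlap. AXL, a receptor known from drug-tolerant lung cancer cells, was at 22.0 ± 3.49 CPM in DTC, 56.4 ± 2.69 CPM in DTEC and 53.1 ± 0.765 CPM in untreated cells (1.36, adjusted p 1.77e-07). ROR1 (1.32) and INSR (0.86) were also higher. FGFR1 fell from 22.9 to 9.18 CPM (-1.31, adjusted p 1.92e-07), MERTK by less (-0.65), and GAS6, the ligand of AXL and MERTK, from 52.5 to 22.3 CPM (-1.24). MET, whose gain is a known route of resistance, was not called, at 106 ± 35.9 CPM in DTC and 132 ± 6.5 CPM in DTEC, although it was called higher without DTC replicate 1.

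Genes of mitosis were mostly higher in DTEC, with a median still under the untreated level. Of 29 mitosis genes, 26 were higher in DTEC and 1 lower, with a median of 0.82. Against untreated cells the median was -1.80 in DTC and -0.97 in DTEC. PLK1, a mitotic kinase, was at 29.1, 29.9 and 36.1 CPM in DTC and 106, 114 and 124 CPM in DTEC (1.85, SE 0.111, adjusted p 1.11e-08). MKI67, the Ki-67 proliferation antigen, was at 119, 63.4 and 66.9 CPM in DTC and 213, 212 and 192 CPM in DTEC (1.31, SE 0.184, adjusted p 4.30e-05). TOP2A, the topoisomerase that untangles chromosomes, was at 174, 111 and 133 CPM in DTC and 469, 452 and 408 CPM in DTEC (1.67, SE 0.139, adjusted p 2.86e-07). None of the 3 overlapped between the groups, and DTEC held 35.3%, 56.6% and 67.8% of the untreated means, against 9.75%, 22.8% and 21.3% in DTC.

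CDC20, which activates the anaphase-promoting complex, was at 49.1 and 131 CPM (1.42), and the kinetochore gene CENPF at 75.3 and 199.8 CPM (1.41). CDK1 was the single mitosis gene that fell, from 126, 190.4 and 173 CPM in DTC to 113, 115 and 109.9 CPM in DTEC (-0.54, adjusted p 0.00274). The other 2 were not called.

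A short promoter element shared by many mitosis genes is the cell cycle homology region, TTTGAA. It was searched on both strands in the 250 bases before the RefSeq gene start (GRCh38.p14) and was present in 11 of the 21 called genes with a promoter in the table (52.4%), in both of the 2 list members that were not called higher, and in 13.3% of 35116 promoters of the same length. The 3 called genes with the largest changes that hold a match are shown 5′ to 3′ on the strand of the gene, with the element in capitals on either strand, since they are the members whose levels are given above. CDC20 has 2 matches, of which 1 is shown. A match describes the letters and does not show a site in use.
PLK1, chr16:23678830-23678888, plus strand: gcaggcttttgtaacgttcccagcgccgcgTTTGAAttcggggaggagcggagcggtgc
TOP2A, chr17:40418012-40418120, minus strand: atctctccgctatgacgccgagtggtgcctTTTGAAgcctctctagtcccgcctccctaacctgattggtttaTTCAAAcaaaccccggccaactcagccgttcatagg
CDC20, chr1:43358886-43358951, plus strand: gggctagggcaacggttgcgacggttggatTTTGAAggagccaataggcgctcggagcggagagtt

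Genes of the G1 to S step went in both directions. Of 30, 11 were higher and 4 lower, and the median of 0.16 turned to -0.02 with total count scaling, where the counts were 8 higher and 8 lower. Of 15 licensing and fork genes 8 were higher and 0 lower, led by the helicase subunit gene MCM7 (121 to 253 CPM, 1.07), the polymerase gene POLA1 (1.03), MCM5 (0.99) and MCM3 (0.85). CCNE2, a cyclin of S phase entry, fell from 24.9 ± 2.85 to 8.50 ± 0.657 CPM (-1.55, adjusted p 2.32e-07), and CCND3 from 43.8 to 31.4 CPM (-0.48). Against untreated cells the list's median was -1.21 in DTC and -0.85 in DTEC.

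Growth arrest genes went in both directions. Of 18 CDK inhibitors and p53 targets, 4 were higher and 7 lower, shares not far from the 28.8% and 26.6% of all genes. CDKN1A, the CDK inhibitor p21, was at 57.3, 56.7 and 61.0 CPM in DTC and 6.46, 5.42 and 5.19 CPM in DTEC (-3.36, SE 0.118, adjusted p 9.53e-11). GADD45A, a growth arrest and DNA damage gene, was at 164, 199.9 and 206 CPM in DTC and 32.3, 26.9 and 21.4 CPM in DTEC (-2.82, SE 0.147, adjusted p 2.95e-09). Both were lower in every DTEC library than in any DTC library, as were 27.7% of all genes. The DTEC means were under the untreated means of 9.59 and 40.5 CPM. CDKN2B, the inhibitor p15, fell less, from 136 to 74.6 CPM (-0.87), and remained above its untreated 9.20 CPM. Of 10 RB family and FOXO genes, 8 were higher and 0 lower. DEPP1 rose from 27.3 to 90.5 CPM (1.73) where untreated cells had 0.918 CPM, TXNIP, a glucose-responsive redox protein, from 129 to 301 CPM (1.22), and the insulin receptor substrate gene IRS2 from 59.9 to 199 CPM (1.73).

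**Figure D3:**
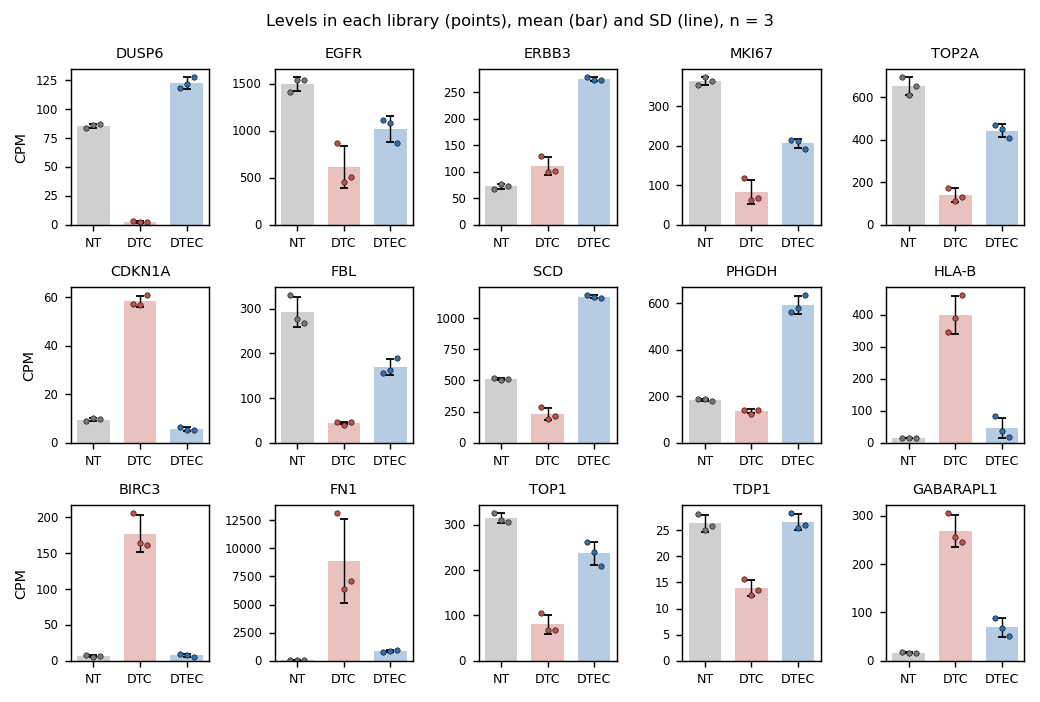
CPM in untreated cells (NT), DTC and DTEC for 15 genes, with bars from 0 at the mean, lines for the SD and 1 point per library (n = 3). DUSP6 and the division genes are low in DTC and recover in DTEC, whereas CDKN1A, HLA-B, BIRC3, FN1 and GABARAPL1 are highest in DTC; DTC replicate 1 is the highest of its group for EGFR, MKI67 and FN1.

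Ribosome production genes were uniformly higher in DTEC. All 22 of 22 ribosome biogenesis genes were called higher, with a median of 0.75, and their median against untreated cells was -1.76 in DTC and -0.93 in DTEC. FBL, the methyltransferase of ribosomal RNA, was at 46.0, 40.9 and 46.4 CPM in DTC and 157, 162 and 190.4 CPM in DTEC (1.94, SE 0.112, adjusted p 7.70e-09). UTP20, of the small subunit processome, was at 24.0 and 72.9 CPM (1.61), and nucleolin (NCL) at 492 and 1041 CPM (1.08). The DTEC libraries still held only 58.1% of the untreated mean of FBL and 47.2% of that of NCL. Of 43 ribosomal protein genes, 26 were higher and 0 lower (median 0.52), led by RPL3 (1.37) and RPS2 (1.20). This count rested on the scaling and on DTC replicate 1: it was 15 with total counts, and without that library 23 were higher and 5 lower. Ribosomal protein genes have many processed pseudogenes, and the values of RPL3 and RPS2 were whole in 0 and 0 of 12 libraries, so reads were shared out.

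The E-box CACGTG, the element bound by MYC, was found in 1 of the 18 ribosome biogenesis promoters in the table (5.56%), against 6.34% of all promoters.

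Genes of serine synthesis and amino acid supply were mostly higher in DTEC. Of 18 ATF4 target genes, 10 were higher and 2 lower (median 0.96). PHGDH, the first enzyme of serine synthesis, was at 143, 125 and 142 CPM in DTC and 563, 579 and 637 CPM in DTEC (2.12, SE 0.0951, adjusted p 7.14e-10), with 185 ± 4.61 CPM in untreated cells. PSAT1, the next enzyme, was at 125 ± 13.1 and 426 ± 104 CPM (1.77, adjusted p 2.78e-07), also above its untreated 173 ± 7.37 CPM. TRIB3 (55.9 to 209 CPM, 1.90) and SESN2 (14.1 to 45.2 CPM, 1.68), both stress-induced regulators, behaved alike in direction. ATF5 (-0.998) and the pro-apoptotic factor DDIT3 (-0.61) were the 2 that fell. ASNS, asparagine synthetase, was named after its value was seen because its promoter holds the amino acid response element TGATGNAA, and it was at 72.9 ± 5.49 CPM in DTC and 232 ± 45.0 CPM in DTEC (1.67, adjusted p 1.19e-07). That element was found in 1 of 8 called genes with a promoter (12.5%), in 1 of the 7 list members not called higher, and in 3.14% of all promoters (both strands, 250 bases before the start, GRCh38.p14). The stretch is shown on the strand of the gene with the match in capitals.
ASNS, chr7:97872439-97872506, minus strand: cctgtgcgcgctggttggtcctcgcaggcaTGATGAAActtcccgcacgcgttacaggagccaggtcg

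Chaperones of the endoplasmic reticulum were mostly higher, 10 of 16 against 1 lower (median 0.43), and 8 higher and 3 lower with total counts. The secretory factor XBP1 rose from 72.2 ± 4.60 to 192 ± 22.8 CPM (1.41, adjusted p 8.88e-08), EDEM1, which hands misfolded proteins to degradation, from 19.2 to 48.5 CPM (1.34), and the chaperone gene HSPA5 from 723 to 1318 CPM (0.87). DNAJB9 fell from 49.4 ± 11.3 to 15.9 ± 2.35 CPM (-1.64, adjusted p 1.08e-06). Of 11 heat shock genes 3 were higher and 2 lower, no more than the 28.8% and 26.6% of all genes, with the mitochondrial chaperone gene HSPD1 at 519.9 and 965 CPM (0.89).

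Most fatty acid synthesis genes were higher in DTEC. Of 10 synthesis genes 9 were higher and 0 lower (median 1.41). SCD, which puts the double bond into fatty acids, was at 287, 193 and 217 CPM in DTC and 1187, 1167 and 1161 CPM in DTEC, with 510.1 ± 8.89 CPM in untreated cells. DTEC were above both other groups in every library, and the log2 fold change from DTC was 2.33 (SE 0.127, adjusted p 4.41e-09). SREBF1, the transcription factor over this pathway, was at 44.1 ± 7.42 and 188 ± 32.3 CPM (2.09, adjusted p 1.94e-07). ACACA, the enzyme that makes malonyl-CoA, was at 99.7 and 334 CPM (1.74), and ACSS2, which makes acetyl-CoA from acetate, at 43.1 and 135 CPM (1.65). FABP5, a fatty acid carrier, fell from 12.6 ± 3.09 to 3.29 ± 1.14 CPM (-1.95). Of 21 cholesterol genes 9 were higher and 4 lower (median 0.10). With total counts 6 were higher and 7 lower (median -0.08). SREBF2, the transcription factor over cholesterol synthesis, rose from 214 to 406 CPM (0.92), whereas the intermediate enzyme genes MSMO1 (-0.61) and IDI1 (-0.59) fell.

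Of 18 glycolysis genes 12 were higher and 0 lower. HK2, which commits glucose to glycolysis, rose from 44.2 ± 13.4 to 138 ± 5.35 CPM (1.65, adjusted p 8.62e-07), to the untreated 142 CPM within the spread, and ALDOC from 21.0 to 58.0 CPM (1.47). The hypoxia targets were mixed, 6 higher and 4 lower of 12, beside 28.8% and 26.6% of all genes. CA9, a carbonic anhydrase and hypoxia marker, was at the floor in DTC and at 5.12, 4.39 and 8.41 CPM in DTEC, at least 64.5-fold higher, and NDRG1 rose from 64.7 to 227 CPM (1.81). ANKRD37 (5.96 to 0.715 CPM, -3.04) and the oxygen sensor gene EGLN3 (109.6 to 29.4 CPM, -1.90) fell.

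NRF2 targets and reductases, which detoxify reactive compounds, were mostly higher: 16 of 24 against 2 lower (median 0.79). The lower count was 5 with total counts and 5 without DTC replicate 1. AKR1B10, an aldo-keto reductase, was at 125 ± 4.46 CPM in DTC, 958 ± 24.0 CPM in DTEC and 1405 ± 79.9 CPM in untreated cells (2.94, adjusted p 3.97e-11). AKR1C1, AKR1C2 and NQO1 had log2 fold changes of 1.86, 1.73 and 1.67. The values of AKR1B10, AKR1C1 and AKR1C2 were whole in 1, 0 and 0 of 12 libraries. Their reads were thus shared with similar genes, and how they were divided is uncertain. ALDH1A3, an aldehyde dehydrogenase used as a stem cell marker, fell from 764 to 484 CPM (-0.66, adjusted p 1.87e-04). Of 9 efflux transporters 6 were higher and 3 lower. ABCC2 rose from 30.04 ± 5.70 to 165 ± 5.31 CPM (2.46, adjusted p 2.12e-09), near its untreated 172 CPM, and ABCC3 from 149.9 ± 4.45 to 587 ± 40.6 CPM (1.97, adjusted p 1.25e-09), above its untreated 169.6 CPM. ABCG2, a transporter for which erlotinib is a known substrate, fell from 106 ± 14.6 to 48.6 ± 5.25 CPM (-1.12, adjusted p 1.53e-06).

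Mitochondrially encoded genes fell together. Of 13, 12 were lower and 0 higher (median -1.03), and MT-ND6 was not called. MT-ND5 went from 1997 ± 190.0 to 636 ± 128 CPM (-1.65, adjusted p 7.62e-07) and MT-ND4 from 6433 to 2897 CPM (-1.15), below their untreated 971 and 4794 CPM. These genes share 1 genome and set the mitochondrial share of counts given above, whose part in other results was not tested. Of 26 nuclear subunits of the same chain 9 were higher and 6 lower, near the 28.8% and 26.6% of all genes, with SDHA at 0.54 and NDUFA1 at -1.14. These counts were 8 higher and 12 lower without DTC replicate 1, and 3 higher and 10 lower with total counts.

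**Figure D4:**
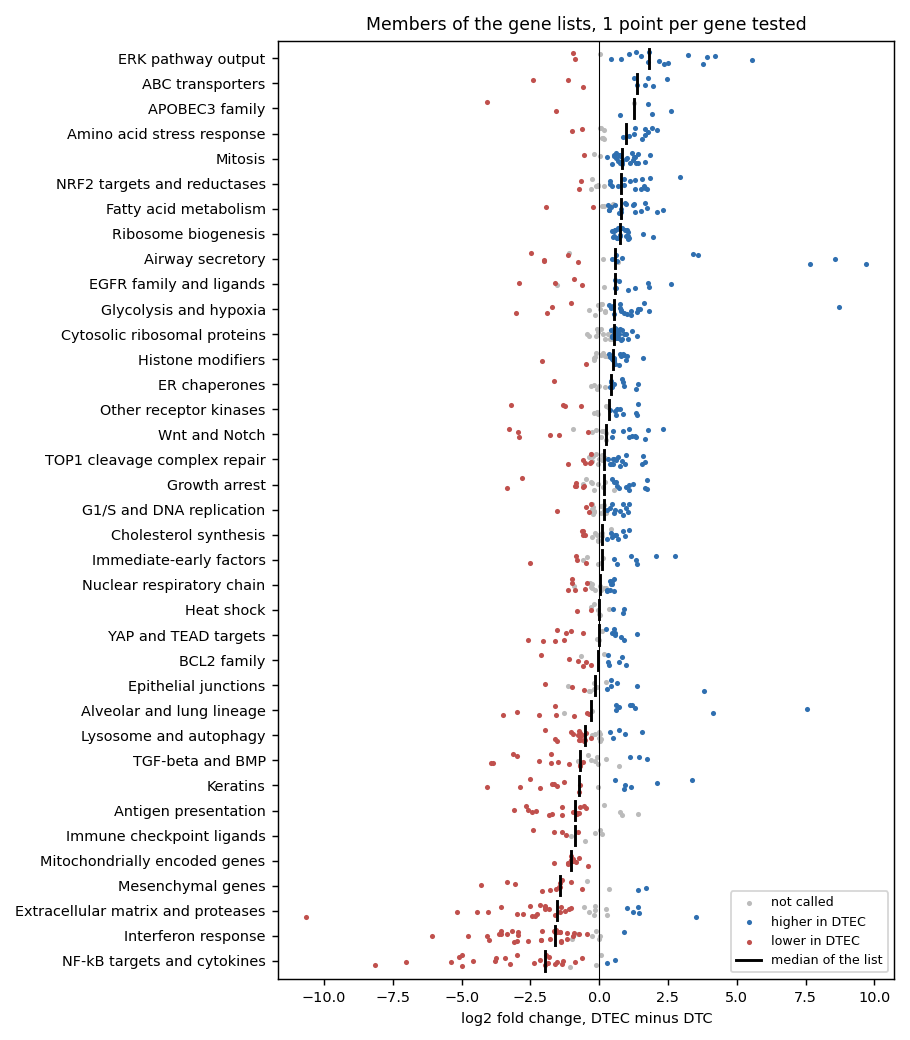
Log2 fold change of DTEC minus DTC for every tested member of 37 gene lists, ordered by the list median (black bar), with called members in blue or red and the rest in grey. ERK output stands at the top with a median of 1.80 and NF-kB targets at the bottom with -1.97. All members with a group at the floor, SERPINB2, IFI27 and CA9 among them, are drawn at fitted values.

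The interferon response fell. Of 39 interferon genes 32 were lower in DTEC and 1 was higher, with a median of -1.62, and 28 of the lower ones passed 2-fold. Against untreated cells, with members at the floor set to their bound, the median was 3.17 in DTC and 1.24 in DTEC, so the list stayed above the untreated level. IFI27 was at 1.79, 3.86 and 3.58 CPM in DTC and at the floor in DTEC, at least 32.0-fold lower. IFI44 was at 10.5, 19.9 and 17.4 CPM in DTC and 0.487, 0.802 and 0.495 CPM in DTEC (-4.77, SE 0.338, adjusted p 6.18e-08). ISG15, a ubiquitin-like antiviral protein, was at 8.38, 25.61 and 23.7 CPM in DTC and 1.25, 1.38 and 1.95 CPM in DTEC (-3.64, SE 0.364, adjusted p 2.55e-06). None of these groups overlapped, where 27.7% of all genes were lower without overlap. The DTEC mean of ISG15 equalled the untreated 1.52 CPM. OAS2, a sensor of double-stranded RNA, was at 4.10 and 0.254 CPM (-4.002). MX1 alone rose, from 1.96, 1.53 and 1.76 CPM in DTC to 3.62, 2.86 and 3.27 CPM in DTEC (0.90, adjusted p 0.00161).

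The interferon-stimulated response element, searched as GAAA and GAAA with NN between them on both strands in the 250 bases before the start, was found in 14 of the 23 called genes with a promoter in the table (60.9%), in 3 of the 6 list members not called lower, and in 3.02% of all 35116 promoters. The called genes with the largest changes, a mean of at least 1 CPM and a match were IFI27, IFI44 and ISG15, and their elements are printed in capitals on the strand of the gene (RefSeq, GRCh38.p14). In IFI27 and ISG15 there are 2 matches, which overlap in ISG15.
IFI27, chr14:94110598-94110680, plus strand: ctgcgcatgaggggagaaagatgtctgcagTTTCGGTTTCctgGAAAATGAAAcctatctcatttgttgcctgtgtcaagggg
IFI44, chr1:78649741-78649788, plus strand: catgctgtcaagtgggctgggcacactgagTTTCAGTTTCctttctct
ISG15, chr1:1013354-1013429, plus strand: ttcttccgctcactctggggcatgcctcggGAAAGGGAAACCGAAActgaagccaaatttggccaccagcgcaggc

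All 15 of 15 genes of HLA class I and its assembly were lower in DTEC (median -1.34). HLA-B, which presents peptides to T cells, was at 345, 389 and 462 CPM in DTC and 82.2, 36.6 and 19.5 CPM in DTEC, against 14.7 ± 0.509 CPM in untreated cells. The DTEC libraries were all below the DTC libraries and all above the untreated mean, and the log2 fold change from DTC was -3.11 (SE 0.397, adjusted p 5.01e-05). HLA-F was at 20.6 and 3.29 CPM (-2.65) and the immunoproteasome subunit gene PSMB9 at 21.3 and 3.91 CPM (-2.45). HLA genes are alike in sequence, and the values of HLA-B were whole in 0 of 12 libraries, so the division of reads among them is uncertain. In class II, 5 of 10 genes were tested. CTSS, a protease of class II processing, fell from 16.1 to 2.67 CPM (-2.60, adjusted p 1.47e-05), and the other 4 were not called, with CD74, the class II chaperone, at 3.35 ± 0.454 CPM in DTC and 8.99 ± 9.81 CPM in DTEC. The DTEC libraries of CD74 spread widely, and the gene was called without DTEC replicate 3 and with no filter on low counts.

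NF-kB targets and cytokines had the lowest median of the 37 lists plotted above. Of 29 tested, 24 were lower and 2 higher, with a median of -1.97 and 22 lower by at least 2-fold. The chemokines CXCL11 and CXCL10 were at 7.84, 20.7 and 14.0 and 1.76, 3.21 and 2.87 CPM in DTC and at 0.152, 0.153 and 0.0275 and 0.0305, 0.0764 and 0.110 CPM in DTEC. The log2 fold changes were -7.02 and -5.09, with adjusted p of 1.17e-07 and 1.08e-05, and both chemokines were close to the counting floor in DTEC. IL6 and the feedback deubiquitinase gene TNFAIP3, named after their values were seen for their promoter matches, were at 14.8 and 159 CPM in DTC and at 0.473 and 17.0 CPM in DTEC (-4.98 and -3.23, adjusted p 1.22e-07 and 6.82e-10). TNFAIP2 was higher (696 to 1046 CPM, 0.59). CSF1 was also called higher (0.29, adjusted p 0.0173), a call lost under 8 alternatives, among them total count scaling and leaving out any 1 of 4 of the libraries. The immune markers given above, with PTPRC near 0 and CD3D, MS4A1 and NKG7 without a count, were measured beside these genes, and their part in the result was not tested.

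The NF-kB element, searched as GGGA and TTTCC with N between them in the same way, was found in 5 of the 18 called genes with a promoter (27.8%), in 4 of the 10 list members not called lower, and in 0.527% of all promoters. The 3 with the largest changes are shown.
IL32, chr16:3065274-3065343, plus strand: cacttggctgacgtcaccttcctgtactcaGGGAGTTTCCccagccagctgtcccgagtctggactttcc
IL6, chr7:22727097-22727166, plus strand: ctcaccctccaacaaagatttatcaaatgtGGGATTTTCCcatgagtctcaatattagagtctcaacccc
TNFAIP3, chr6:137867162-137867231, plus strand: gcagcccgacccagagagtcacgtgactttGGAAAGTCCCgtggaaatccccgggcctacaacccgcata

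**Figure D5:**
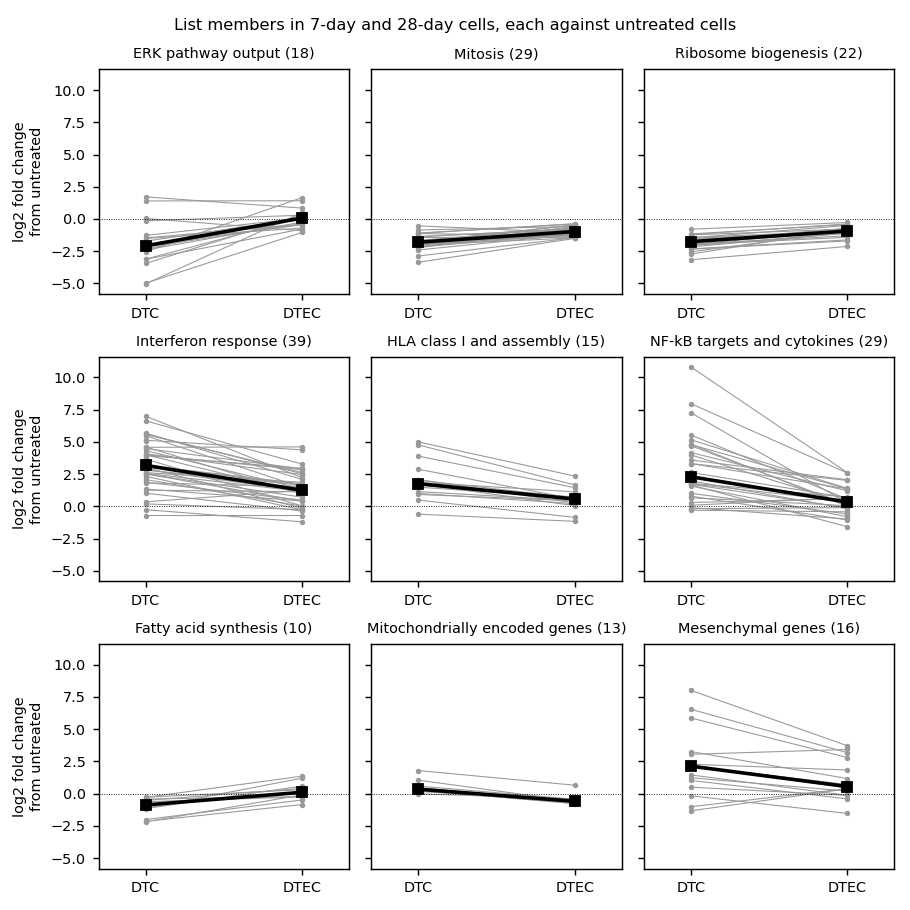
Log2 fold change from untreated cells in DTC and in DTEC for each member of 9 gene groups (grey lines) and their median (black), with members at the counting floor in untreated cells or in the other group drawn at their bound; the number of members tested is in each title. Both comparisons share the untreated libraries and are set side by side only. ERK output runs from a median of -2.08 to 0.08, and the interferon response from 3.17 to 1.24.

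The APOBEC3 cytidine deaminases, which mutate single-stranded DNA, went in both directions. Of 7 tested 4 were higher and 2 lower, beside 28.8% and 26.6% of all genes. APOBEC3A, named after its value was seen, fell most, from 1.33 to 0.0752 CPM (-4.10, adjusted p 1.51e-04). Its DTEC mean lay under the 0.0961 CPM of 3 counts, so the size of its fall is uncertain. APOBEC3B was at 245, 206 and 246 CPM in DTC and 79.4, 73.8 and 80.0 CPM in DTEC (-1.58, SE 0.0945, adjusted p 1.11e-08), with 101 ± 3.83 CPM in untreated cells. APOBEC3C was at 149.6, 122 and 123 CPM in DTC and 434, 439 and 483 CPM in DTEC (1.78, SE 0.104, adjusted p 8.79e-09). APOBEC3F was at 21.1 ± 1.04 and 79.0 ± 5.83 CPM (1.91) and APOBEC3H at 0.472 and 2.92 CPM (2.60). In APOBEC3B, APOBEC3C, APOBEC3F and APOBEC3H no DTC library overlapped a DTEC library. The values of APOBEC3B and APOBEC3F were whole in 0 and 1 libraries, so reads were shared among these similar genes.

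Immune checkpoint ligands were lower where called, 5 of 10, with 0 higher. With total counts 8 were lower. PDCD1LG2 (PD-L2) fell from 15.3 ± 1.39 to 2.91 ± 1.52 CPM (-2.40, adjusted p 1.14e-05), CD274 (PD-L1) from 8.81 to 3.80 CPM (-1.22, adjusted p 2.48e-05), and CD47, the signal against phagocytosis, from 335 to 198 CPM (-0.76). VTCN1 (B7-H4) was not called and stayed high in both, at 71.0 ± 7.55 CPM in DTC and 49.8 ± 22.2 CPM in DTEC, where untreated cells had 0.512 CPM. It was called lower with total count and upper quartile scaling, with no filter on low counts and with limma-voom. The same held with the replicate number as a block and without DTEC replicate 1.

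Lung and squamous lineage genes moved in both directions. Of 18 airway secretory genes 9 were higher and 5 lower, beside 28.8% and 26.6% of all genes, so the lower share was near that of all genes. Beside MUC5B, DMBT1 and CP, the mucin-folding factor gene AGR2 rose from 10.99 ± 3.54 to 132 ± 24.6 CPM (3.58, adjusted p 1.93e-08). The membrane mucin MUC4 fell from 52.2 ± 3.00 to 12.9 ± 4.05 CPM (-2.03, adjusted p 4.61e-07) and the protease inhibitor gene SLPI from 369.7 to 170.1 CPM (-1.12). SFTPB, a surfactant protein, was at 0.0338, 0.0294 and 0.147 CPM in DTC and 17.1, 13.5 and 11.7 CPM in DTEC (7.55, adjusted p 2.86e-09), with 1.51 CPM in untreated cells. FOXA1 and EHF, epithelial transcription factors, rose from 24.7 to 60.6 and from 144 to 315 CPM (1.29 and 1.13), and GATA6 (26.3 to 8.74 CPM, -1.59) and TP63 (4.50 to 0.970 CPM, -2.20) fell.

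Of 11 stratified keratins 9 were lower and 2 higher. KRT13 was at 6.22, 7.71 and 8.24 CPM in DTC and 32.1, 67.0 and 128 CPM in DTEC (3.36, adjusted p 2.46e-05), and KRT15 at 27.4 and 117 CPM (2.10). KRT17 fell from 13.7 ± 1.54 to 3.06 ± 0.581 CPM (-2.15, adjusted p 8.66e-07), KRT4 from 8.25 to 1.44 CPM (-2.52), and KRT6A (-2.88) and KRT6B (-1.64), copies that share reads, with them. The simple keratin genes KRT8 (0.93) and KRT18 (1.14) rose. Of 16 junction genes, 6 were higher and 3 lower, a balance that turned to 5 higher and 7 lower with total counts, and 5 were lower without DTC replicate 1. CLDN1, a tight junction protein, fell from 449 ± 92.1 to 116 ± 30.7 CPM (-1.96, adjusted p 6.79e-07), and the epithelial splicing regulator gene ESRP1 rose from 128 to 335 CPM (1.39, adjusted p 1.07e-06). E-cadherin (CDH1) was not called, at 298 ± 85.1 CPM in DTC and 355 ± 66.0 CPM in DTEC, although it was called higher without DTC replicate 1.

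Mesenchymal genes were lower in DTEC, 12 of 16 against 2 higher (median -1.43), among them all 5 of the 5 transcription factors tested. FN1, fibronectin, was at 13169.5, 6343 and 7091 CPM in DTC and 796, 869 and 921 CPM in DTEC (-3.36, SE 0.224, adjusted p 5.27e-08). The DTEC libraries were well under the DTC libraries and well above the untreated 95.3 ± 5.89 CPM. MYL9, a myosin light chain of contractile cells, was at 77.4 and 3.91 CPM (-4.30), and vimentin (VIM) at 48.3 ± 3.13 and 14.0 ± 4.93 CPM (-1.79, adjusted p 2.68e-06). LOX, a collagen cross-linking enzyme, and S100A4 rose (1.71 and 1.41).

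Of 34 matrix and protease genes 22 were lower and 5 higher (median -1.52). Vitronectin (VTN) went from 54.2 ± 8.89 to 2.45 ± 0.652 CPM (-4.46, adjusted p 8.35e-10) and MMP9 from 3.33 to 0.195 CPM (-4.05). COL1A1 went from 55.7 to 12.4 CPM (-2.17) while the other fibroblast collagen gene COL1A2 was at 0.0309 and 0 CPM. The tissue plasminogen activator gene PLAT (1.45), LAMA4 (1.41), SERPINE2 (1.22) and TIMP3 (1.00) were higher.

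TGF-beta and BMP genes were lower in 12 and higher in 3 of 23. INHBA, the activin A subunit, was at 299.6 ± 68.4 CPM in DTC and 37.4 ± 5.34 CPM in DTEC (-3.003, adjusted p 2.33e-09), and ID3, a BMP target, at 61.8 ± 19.8 and 6.95 ± 1.597 CPM (-3.15, adjusted p 1.72e-07). The BMP antagonist gene NOG rose from 3.26 to 10.9 CPM (1.73). Of 19 YAP and TEAD genes 8 were higher and 8 lower, and 4 higher and 8 lower with total counts. The targets ANKRD1 (164 to 27.5 CPM, -2.57) and CCN1 (348 to 115 CPM, -1.60) fell and the coactivator gene YAP1 itself rose (137 to 240.4 CPM, 0.81). In the Wnt and Notch list 11 were higher and 6 lower of 25, beside 28.8% and 26.6% of all genes. NOTCH3 rose from 88.7 ± 7.68 to 303 ± 33.7 CPM (1.77, adjusted p 5.29e-07) and the Notch target HEY1 from 2.24 to 11.2 CPM (2.33), and DKK1, a secreted Wnt inhibitor, fell from 185 ± 20.4 to 24.4 ± 2.58 CPM (-2.92, adjusted p 2.25e-10).

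TDP1 frees DNA from trapped TOP1, and both genes rose between day 7 and day 28. TOP1 (ENSG00000198900, chromosome 20, 41028818 to 41124487, plus strand, GRCh38) was at 105, 67.1 and 68.3 CPM in DTC and 261, 239.9 and 209 CPM in DTEC (1.56, SE 0.152, adjusted p 1.17e-06). TDP1 (ENSG00000042088, chromosome 14, 89954939 to 90044768, plus strand, GRCh38) was at 15.7, 12.7 and 13.5 CPM in DTC and 28.4, 25.4 and 26.1 CPM in DTEC (0.93, SE 0.108, adjusted p 6.31e-06). The groups did not overlap for either gene. The mitochondrial topoisomerase gene TOP1MT was at 16.1 and 48.9 CPM (1.61), with 53.9 CPM in untreated cells. The DNA ligase gene LIG3 was at 17.0 and 33.8 CPM (0.99). Over the 6 topoisomerase genes tested, the median log2 fold change from untreated cells was -1.25 in DTC and -0.42 in DTEC. TDP2, which acts on trapped TOP2, was not called, at 108 ± 15.6 CPM in DTC and 88.4 ± 12.1 CPM in DTEC. However, it was called lower with the other scalings, with DESeq2 and without DTC or DTEC replicate 1. Of 32 genes of the repair of TOP1 complexes, 15 were higher and 6 lower (11 higher and 10 lower with total counts, 17 higher and 9 lower without DTC replicate 1), the lower ones including the repair factor genes APLF (-1.13) and LIG4 (-0.52).

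In the BCL2 family 4 of the 4 guardians against death that were tested were higher, and of 10 effectors and BH3-only genes 6 were lower and 2 higher. The calls of 2 guardians, MCL1 (0.33, adjusted p 0.0275) and BCL2L2 (0.33, adjusted p 0.0184), both named after their values were seen, were lost with total count and upper quartile scaling, in the compared libraries alone and without DTC replicate 3, DTEC replicate 1 or DTEC replicate 2. That of MCL1 was also lost with RLE scaling and without DTC replicate 2. Over the whole family 6 were higher and 6 lower, and 3 higher and 7 lower with total counts. BCL2L1 (BCL-XL) rose from 106, 92.5 and 105 CPM in the DTC libraries to 156, 159 and 179 CPM in the DTEC libraries (0.70, adjusted p 2.20e-05), and BCL2 from 4.69 to 8.24 CPM (0.82, adjusted p 8.61e-04). The killers BMF (39.0 ± 4.47 to 23.1 ± 1.36 CPM, -0.76), PMAIP1 (42.5 to 19.8 CPM, -1.11) and BIK (4.67 to 1.08 CPM, -2.10) fell, while HRK rose (7.44 to 14.5 CPM, 0.96). BAX was called higher (0.37, adjusted p 0.00735), a call lost under total count and upper quartile scaling, in the compared libraries alone and without DTEC replicate 3.

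Lysosome and autophagy genes were more often lower, 17 of 29 against 5 higher (median -0.51), of which 3 were called higher with total counts. GABARAPL1, which coats autophagosomes, was at 307, 256 and 245 CPM in DTC and 89.4, 66.8 and 51.5 CPM in DTEC (-1.96, SE 0.165, adjusted p 3.21e-07). The autophagy kinase gene ULK1 went from 158 to 54.5 CPM (-1.53) and WIPI1 from 43.8 to 14.4 CPM (-1.61), and all 3 remained above their untreated 16.7, 30.7 and 6.13 CPM. The cathepsin genes CTSL (79.0 to 234 CPM, 1.57) and CTSD (260.0 to 494 CPM, 0.93) rose. Of 27 histone and DNA modifiers 17 were higher and 2 lower, and 12 higher and 4 lower with total counts. The demethylase gene KDM1A rose from 173 ± 10.5 to 514 ± 14.5 CPM (1.57, adjusted p 8.12e-09), and the deacetylase gene HDAC9 fell from 39.96 ± 1.05 to 9.40 ± 2.14 CPM (-2.09, adjusted p 4.37e-08), below its untreated 13.4 CPM.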

How the data were processed

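RNA sequencing of polyadenylated RNA was analysed in 12 libraries, of which the 6 of DTC and DTEC were compared. The deposited values were expected counts, estimated reads per gene with no scaling to depth; per the submitters' processing notes the tools were RSEM 1.3.1, Bowtie2 2.5.2 and DESeq2 1.40.2 with GRCh38, and the annotation release and filters are not given in the sources used here. Estimated counts can hold decimals where reads are shared among similar genes, so such genes carry an uncertainty the tests do not see. Not every such gene is marked in the text. For example, the values of KRT15, KDM1A, PLAT and IRS2 were whole in 2, 2, 0 and 0 of 12 libraries. Per the labels, the library kit was a stranded one. The counting setting is not given, so antisense genes are not named.

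Values were rounded to whole numbers, and the tests used edgeR 4.0.16 (R 4.3.3) with filterByExpr by group (17115 genes, at least 99.891% of the counts of each library), TMM scaling, 1 mean per group over all 12 libraries, robust quasi-likelihood F tests with 8 residual degrees of freedom, and Benjamini-Hochberg adjustment over all genes tested. SE is that of the log2 fold change. CPM uses TMM-scaled totals, and ± is the SD over 3 libraries. Adjusted p-values of single genes come from this fit unless said otherwise. The same step was run on counts simulated with a spread of 14.6% for every gene. In them 100 genes were changed 2-fold and 100 changed 4-fold, all over 1 CPM, and the rest were left unchanged. It recovered 95% and 100% of the changed genes, with 11 false calls. These rates do not cover the wider spread within DTC (21.7%), genes at lower levels or a comparison in which most genes differ.

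Alternatives were total count, RLE and upper quartile scaling, 2 other filters on low counts, DESeq2 1.42.0, limma-voom (limma 3.58.1), the replicate number as a block, the compared libraries alone, and leaving out each library. Deviations of same-numbered replicates correlated at 0.14, -0.01 and 0.14, and those of the other pairs at -0.19 to 0.12. With 3 libraries per group these values cannot show whether the replicates pair. Coordinates are those of the GENCODE 29 gene of the same identifier (58261 of 62754 identifiers), and promoters are RefSeq's.

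The 42 gene lists (885 genes) and the genes in them were chosen with earlier results of these data known. Named genes were the 12 higher and 12 lower with the largest change at 2-fold, a mean of at least 10 CPM and no overlap of libraries; up to 4 called members of a list per direction with a mean of at least 1 CPM; uncalled members where a list has 5 or fewer or beside a called member of the same role; and a few genes fixed by name, such as EGFR, TDP1 and MYC. A few genes that meet this rule are not reported here. No list was tested as a set. Intervals and floors cover counting error only, and the labels name no molecular identifiers.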

Additional observations from a re-analysis of the deposited data

How the results depend on the processing

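The balance of higher and lower calls moved with the scaling, from 51.9% higher to 37.4% with total counts. With the replicate number as a block, 5096 genes were higher and 4636 lower. Whether the numbers pair the cultures is not known, so this fit is not read as a paired test. DESeq2 called 4810 and 4774, limma-voom 5025 and 4642, and the compared libraries alone 3802 and 4054. Leaving out 1 library gave 4158 to 5353 higher and 4174 to 5257 lower, the most without DTC replicate 1. DTEC minus DTC in genes detected was -1502 when at least 5 counts were required. Of the genes named, CSF1, BAX, MCL1 and BCL2L2 lost their calls under some alternatives, none reversed, and CD68, CD74, CDH1, MET, MT-ND6, TDP2, TUBA1B and VTCN1 gained a call under at least 1. Genes under about 3 counts per library cannot be placed in a direction at this depth.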

Other observations

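Gene families outside the lists were grouped after their values were seen, so their counts are a description with no test. Of 25 clustered histone genes tested, 0 were higher and 24 lower in DTEC, all 24 by at least 2-fold, with a median log2 fold change of -2.73. H1-2, a linker histone, went from 51.3 ± 12.9 CPM in DTC to 3.99 ± 0.836 CPM in DTEC, against 3.21 CPM in untreated cells. H2BC12 went from 65.4 to 14.6 CPM. Transcripts of these genes mostly lack a poly(A) tail, and the libraries were made from polyadenylated RNA, so these values do not measure the whole histone message.

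All 4 PADI genes tested, which encode enzymes that citrullinate proteins, were higher, with a median of 3.12, and PADI4 went from 0.751 to 13.3 CPM. Of 11 tubulin genes 0 were higher and 6 lower, where 26.6% of all genes were lower. TUBA1A went from 216 ± 57.6 to 21.2 ± 3.23 CPM, but its values were whole in 0 of 12 libraries, and the split of reads among similar tubulin genes was not tested. The other 5, TUBA1B among them, were not called. The acute-phase gene SAA1 went from 54.8 to 4.59 CPM and CST6, a protease inhibitor, from 72.2 to 4.64 CPM. The values of SAA1 were whole in 3 of 12 libraries, so its reads were shared with another feature.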
